A study of Homo sapiens with 6 samples.

Results

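ABC transporter genes were taken as the rows of the expression table whose symbol was ABC followed by a subfamily letter from A to G and a number. This rule found 43 of 23569 genes, of which 31 were among the 15353 genes with enough expression to be tested. It used names and no measured value. ABCG5 and ABCG8 were not among the listed symbols, and the relatives TAP1, TAP2 and CFTR carry other names and were treated as a separate list.

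The samples were TFK1 cells, a human cholangiocarcinoma line, sequenced as 3 libraries of negative control cells (oeNC) and 3 libraries of cells overexpressing STUB1 (oeSTUB1), with no further treatment of either group. STUB1 is an E3 ubiquitin ligase that works with chaperones. As the study describes its overexpression, the STUB1 coding sequence was brought in by lentivirus and the cells were then selected with puromycin to give stable lines, so each group may stand for a single infected population. Nothing in the labels said that the libraries came from separate cultures, so p-values measured the spread between these libraries, which may be technical.

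ABC proteins bind and split ATP. Most of them use it to move substrates across a membrane, and the smaller ones have to pair up into dimers before they can do so. In bile duct epithelium and liver, members of the family move bile salts, phospholipid, sterols, conjugated organic anions and drugs, and ABCB1, ABCC1 and ABCG2 are the best known pumps of multidrug resistance. ABCE1 and the ABCF proteins have no membrane part and act on ribosomes.

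Library totals, recovered from the FPKM values, lay between 33106564 and 36744521 fragments. STUB1 was higher in oeSTUB1 than in oeNC, at 66.1 ± 7.70 against 32.3 ± 1.23 FPKM (mean ± SD, n = 3), a log2 fold change of 1.03 (SE 0.10, limma adjusted p = 0.000642). FPKM scales the fragments of a gene by its length and by the library total. oeSTUB1 replicate 2 stood apart. Its chi-square per degree of freedom against the other oeSTUB1 libraries was 82.6 and 76.7, while all pairs without it lay between 3.48 and 10.4. Compared with the other oeSTUB1 libraries, the median gene was 0.49 higher on the log2 scale in replicate 2 for genes of at most 1000 bases, and -0.45 for genes over 8000 bases. Of the 6 biliary epithelial markers checked, KRT7 was abundant at 502 ± 23.0 FPKM in oeNC, whereas KRT19 was at 0.453 ± 0.0776 FPKM and CLDN4 stayed below 1 FPKM in every library. Between the groups KRT19 was higher in oeSTUB1 and EPCAM and CDH1 were lower, with log2 fold changes of 2.47, -1.13 and -1.09 (limma adjusted p = 0.000176, 0.0105 and 0.00545). The summed biliary markers ranged from 557.8 to 598.3 FPKM in oeNC and from 635.6 to 906.4 in oeSTUB1. Most of each sum was KRT7, at 704 ± 149 FPKM in oeSTUB1, which did not pass the test (log2 fold change 0.47, limma adjusted p = 0.0818). SOX9 (-0.23) and CLDN4 (0.90) did not pass it either. The sums therefore do not show a rise of the biliary markers in general. The summed markers of hepatocytes reached at most 1.28 FPKM, of fibroblasts 3.92, of endothelium 0.231 and of leukocytes 7.85, the last mainly from CD14, with none called. Their part in the ABC results was not tested.

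Sequences before the RefSeq gene start are shown for 4 members whose expression differed between the groups. In these windows ABCB1 and ABCG2 hold almost no CpG dinucleotides, and ABCC6 and ABCA1 hold more. For each of these genes some annotated starts lie elsewhere, so the contrast is one of windows and not of promoters known to be in use. The windows are the 250 bases before the RefSeq gene start in assembly GRCh38.p14. All are from the minus strand and written 5′ to 3′, with every CpG in capitals. ABCB1, chosen as the largest fall, lies at chr7:87713296-87713545, ABCG2 at chr4:88231627-88231876, ABCC6 at chr16:16223495-16223744, and ABCA1, the largest rise, at chr9:104928156-104928405.
ABCB1: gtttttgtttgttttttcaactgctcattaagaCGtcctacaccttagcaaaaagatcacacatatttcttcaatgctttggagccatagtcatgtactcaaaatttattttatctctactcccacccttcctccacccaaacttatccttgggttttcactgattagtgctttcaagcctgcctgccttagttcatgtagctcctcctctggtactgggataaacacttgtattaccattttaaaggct
ABCG2: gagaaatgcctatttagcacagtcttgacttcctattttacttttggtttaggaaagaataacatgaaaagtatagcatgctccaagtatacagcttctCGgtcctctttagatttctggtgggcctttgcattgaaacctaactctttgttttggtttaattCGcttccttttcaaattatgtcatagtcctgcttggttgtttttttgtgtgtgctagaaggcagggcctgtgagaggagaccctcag
ABCC6: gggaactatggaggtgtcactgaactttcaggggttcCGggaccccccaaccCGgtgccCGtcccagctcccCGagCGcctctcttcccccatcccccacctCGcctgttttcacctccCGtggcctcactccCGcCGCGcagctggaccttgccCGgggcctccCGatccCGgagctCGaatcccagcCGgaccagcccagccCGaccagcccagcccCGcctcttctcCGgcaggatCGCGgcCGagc
ABCA1: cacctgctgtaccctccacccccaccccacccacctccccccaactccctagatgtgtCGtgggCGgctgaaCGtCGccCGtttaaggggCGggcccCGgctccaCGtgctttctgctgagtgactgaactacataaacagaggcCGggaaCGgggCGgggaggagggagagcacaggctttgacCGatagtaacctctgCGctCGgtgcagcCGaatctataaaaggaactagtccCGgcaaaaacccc

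ABCB1 had 1 CpG in this window and ABCG2 had 2, whereas ABCC6 had 21 and ABCA1 had 16. The other called members with a matched promoter, ABCB6 and ABCF2, had 20 and 26. The low counts in the ABCB1 and ABCG2 windows were thus not typical of the called members. The median over 27305 RefSeq promoters was 11, and over the 11980 tested genes with a promoter it was 21. ABCC2 also had 1, and ABCC4, a relative in the same subfamily, had 42. A RefSeq promoter was matched for 33 of the 43 members, with a median of 16 CpG and a range from 0 to 42. ABCC8 was not among the matched members. Several starts are annotated for these genes: GENCODE release 29 gives ABCB1 11 different transcript starts, of which 4 fell in this window or the 50 bases after it, and ABCG2 4 starts, of which 0 did. The expression values do not tell which start was in use. The low counts of ABCB1 and ABCG2 therefore do not show that the promoters in use were poor in CpG. Searched on both strands, GGGCGG occurred 3 times in the ABCA1 window and not in those of ABCB1, ABCG2 or ABCC6, and 42.3% of all promoters held it. CCAAT occurred in none of the 4 windows and in 33% of all promoters, and TATAAA occurred once, in that of ABCA1, and in 11.1% of all promoters. DNA methylation was not measured in these libraries.

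Expression of the family was led by 3 efflux pumps. In oeNC, ABCC2 had the highest level at 106 ± 4.89 FPKM (mean ± SD, n = 3), followed by ABCC3 at 66.9 ± 2.36 and ABCC1 at 65.5 ± 1.54. The values of ABCC3 and ABCC1 overlapped, and those of ABCC2 lay above both. These 3 genes together made up 50.5% to 52.7% of the summed FPKM of the family in oeNC, and 44.3% in oeSTUB1 replicate 2 against 50.5% and 53.2% in the other oeSTUB1 libraries. Next in oeNC came ABCE1 at 36.8 ± 0.868 FPKM, ABCD3 at 26.6 ± 1.79, ABCF1 at 23.4 ± 0.651 and ABCB6 at 19.7 ± 0.515, with no overlap between neighbours in that order. By the mean of the group in which they were higher, 10 members were over 10 FPKM, 17 between 1 and 10, 4 between 0.1 and 1, and 12 at or under 0.1.

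To find which members differed with STUB1 overexpression, each of the 31 tested members was read from a limma fit over all 15353 tested genes. ABCB1, ABCG2, ABCC6, ABCC8 and ABCB6 were lower in oeSTUB1, and ABCA1 and ABCF2 were higher, at a Benjamini-Hochberg adjusted p under 0.05. The 5 lower members were 16.1% of those tested, where 6.59% of all tested genes were called lower. The 2 higher members were 6.45%, where 7.01% of all tested genes were called higher. With a log2 fold change of more than 1 required as well, ABCB1, ABCC6 and ABCC8 were lower, 9.68% of the members beside 2.4% of all genes, and ABCA1 was higher, 3.23% beside 2.79%. The median log2 fold change was -0.07 over the tested members and 0.02 over all tested genes. By chromosome, it was 2.07 over the 14 tested genes of Y, -0.21 over 1031 of chromosome 2 and 0.16 over 604 of chromosome 9. The other chromosomes lay between -0.04 and 0.07. The groups thus also differed over whole chromosomes, and the part of this in the ABC values was not tested. In RNA from whole cultures, fewer cells that express a gene and less RNA per cell cannot be told apart.

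**Figure D1:**
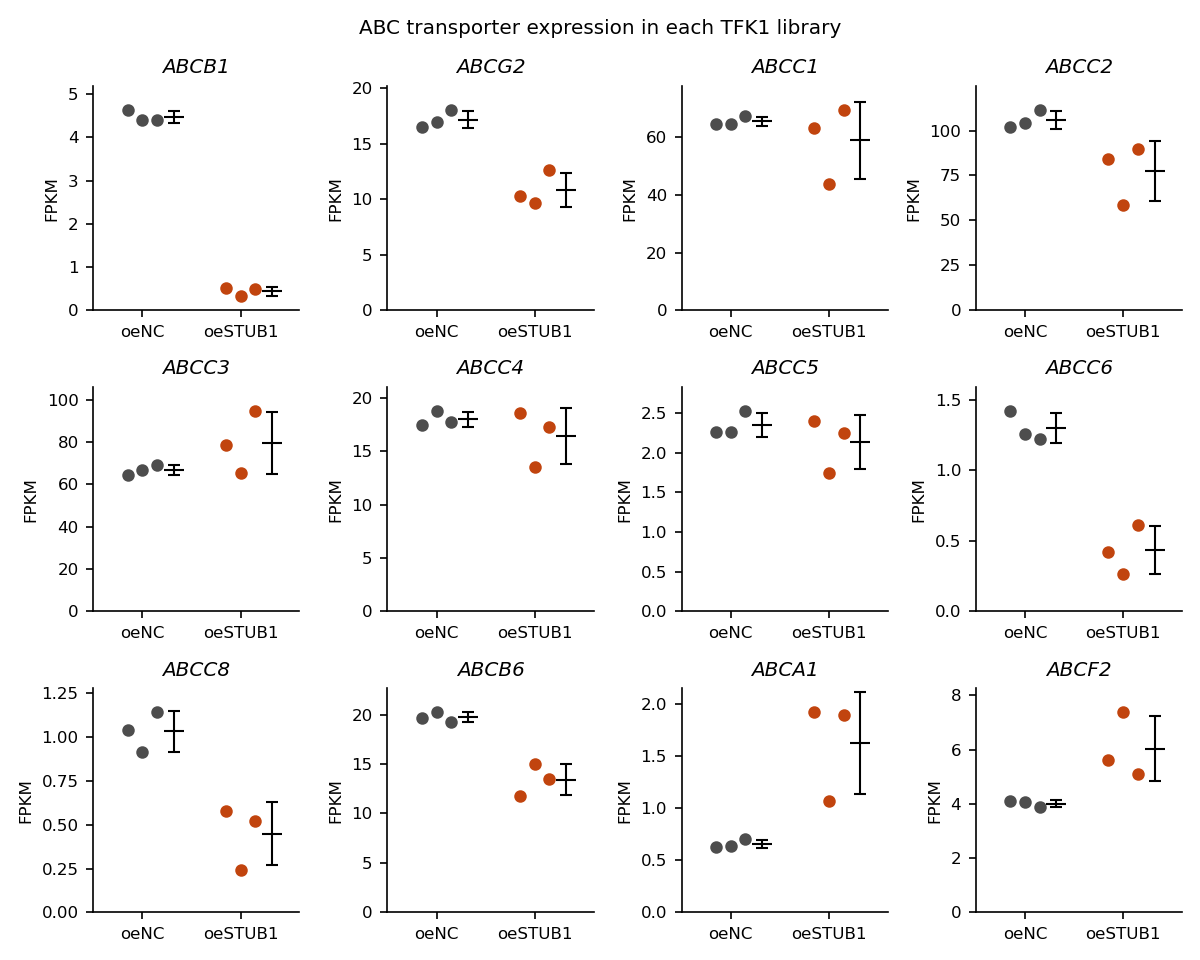
FPKM of 12 ABC genes in each library (points, linear axes from 0), with the mean and SD of each group beside them (n = 3). For ABCB1 the oeNC libraries lie between 4.40 and 4.63 FPKM and the oeSTUB1 libraries between 0.327 and 0.521, whereas for ABCC1, ABCC3, ABCC4 and ABCC5 the groups overlap.

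Among the drug and organic anion pumps, ABCB1 showed the largest difference. ABCB1 encodes P-glycoprotein, which expels many hydrophobic drugs and sits in the canalicular and apical membrane of liver and bile duct cells. It lies on chromosome 7 from 87503633 to 87713323 on the minus strand (GRCh38, GENCODE release 29). ABCB1 measured 4.63, 4.40 and 4.41 FPKM in the oeNC libraries and 0.521, 0.327 and 0.485 FPKM in the oeSTUB1 libraries. Every oeSTUB1 library was far below every oeNC library, with 62 to 103 fragments where oeNC had 874 to 928. The mean of oeNC was 10.1 times that of oeSTUB1, and the log2 fold change on the log2(FPKM + 0.1) scale was -3.09 (SE 0.17, limma adjusted p = 7.88e-05). Because of the added 0.1 this scale understates the change of low genes, and the log2 ratio of the group means without it was -3.33.

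ABCG2, the breast cancer resistance protein, works as a dimer and exports drugs, urate and sulfated steroids. ABCG2 was at 16.5, 17.0 and 18.1 FPKM in oeNC and at 10.3, 9.67 and 12.6 FPKM in oeSTUB1. The groups did not overlap, and the mean of oeNC was 1.58 times that of oeSTUB1, with a log2 fold change of -0.67 (SE 0.11, limma adjusted p = 0.00739).

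ABCC6, a liver protein of the MRP group whose loss causes pseudoxanthoma elasticum, supports the release of ATP from cells. ABCC6 was at 1.42, 1.26 and 1.221 FPKM in oeNC and at 0.421, 0.268 and 0.611 FPKM in oeSTUB1. All oeSTUB1 libraries lay below all oeNC libraries, on 57 to 134 fragments against 280 to 316. The log2 fold change was -1.44 (SE 0.24, limma adjusted p = 0.00769). ABCC6 has near-identical pseudogene copies on the same chromosome, so its level is uncertain to the extent that counting could split reads among them. ABCB1, ABCG2 and ABCC6 kept their call under each alternative fit that held them.

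The other tested members of this group, ABCC1 to ABCC5 and ABCC10, did not pass the test. ABCC2, which exports conjugated bilirubin and other anions into bile, had 102, 104 and 111 FPKM in oeNC and 84.0, 58.4 and 90.0 FPKM in oeSTUB1. Its groups did not overlap, yet oeSTUB1 replicate 2 was far below the others, and the log2 fold change of -0.47 (SE 0.16) had a limma adjusted p of 0.0867. Without oeSTUB1 replicate 2 the ABCC2 difference was -0.28 with an adjusted p of 0.00963, and with a correction of each library for gene length it was -0.44 with an adjusted p of 0.0087.

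ABCC3 exports conjugated anions and bile salts across the basolateral membrane. It was at 64.6, 66.8 and 69.3 FPKM in oeNC and at 78.4, 65.2 and 94.6 FPKM in oeSTUB1, where replicate 2 lay within the oeNC range and the others above it. The log2 fold change was 0.23 (SE 0.13, limma adjusted p = 0.282), and 0.36 with an adjusted p of 0.0149 without that library. ABCC1, a broad exporter of glutathione conjugates, was at 64.6, 64.7 and 67.3 FPKM in oeNC and at 63.3, 44.0 and 69.4 FPKM in oeSTUB1, and its groups overlapped. Its log2 fold change of -0.18 (SE 0.16) changed to 0.02 without oeSTUB1 replicate 2.

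ABCC4, an exporter of cyclic nucleotides and bile salts, was at 17.5, 18.8 and 17.7 FPKM in oeNC and at 18.6, 13.5 and 17.3 FPKM in oeSTUB1. ABCC5, which exports cyclic nucleotides, was at 2.26, 2.26 and 2.52 FPKM in oeNC and at 2.39, 1.75 and 2.25 FPKM in oeSTUB1. In both genes oeSTUB1 replicate 2 was the lowest of all libraries and the groups overlapped, with log2 fold changes of -0.14 and -0.15 (limma adjusted p = 0.488 and 0.536). Without replicate 2 they were -0.01 and -0.02. Summed over the 11 members of the group, expression was 283 ± 9.35 FPKM in oeNC and 248 ± 48.5 in oeSTUB1. The oeSTUB1 sums were 260.1 and 289.3 FPKM in replicates 1 and 3 and 194.6 in replicate 2, while oeNC ranged from 275.4 to 293.7, so the sums overlapped. Of the 9 tested, 3 were lower and 0 higher, beside 6.59% and 7.01% of all tested genes. ABCC11 and ABCC12 were below the filter.

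The exporters of bile acids, phospholipid and sterols were expressed at low levels. ABCB11, the bile salt export pump, had at most 5 fragments in any library. ABCB4, which moves phosphatidylcholine into bile and is the neighbour of ABCB1 on chromosome 7, had 21, 13 and 9 fragments in oeNC and 5, 2 and 8 in oeSTUB1, or 0.0510 ± 0.0228 and 0.0183 ± 0.0108 FPKM. Each oeSTUB1 library was below each oeNC library, but the gene was under the level required for testing, and a fit without that requirement gave an adjusted p of 0.196.

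ABCA1 loads cholesterol and phospholipid onto apolipoprotein A-I and is induced by oxysterols through the LXR receptors. ABCA1 was at 0.628, 0.632 and 0.703 FPKM in oeNC and at 1.92, 1.06 and 1.89 FPKM in oeSTUB1. All oeSTUB1 libraries were above all oeNC libraries, and replicate 2 was the lowest among them. The mean of oeSTUB1 was 2.48 times that of oeNC, with a log2 fold change of 1.15 (SE 0.23, limma adjusted p = 0.0153). The median of the other tested genes of chromosome 9 was 0.16. This call rested on several libraries: the adjusted p was 0.0612, 0.0635 and 0.0512 without oeNC replicate 1, 2 or 3 and 0.0534 without oeSTUB1 replicate 1, with log2 fold changes from 1.01 to 1.20, whereas it was 0.000483 without oeSTUB1 replicate 2.

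ABCG1, which passes cholesterol to HDL particles and is likewise an LXR target, was at 0.712, 0.655 and 0.789 FPKM in oeNC and at 0.427, 0.339 and 0.568 FPKM in oeSTUB1. Its groups did not overlap and its values lay in the direction opposite to those of ABCA1, with a log2 fold change of -0.61 (SE 0.20, limma adjusted p = 0.0858). A fit on the recovered fragment counts with limma-voom gave -0.72 and an adjusted p of 0.0373. Of the LXR genes, NR1H3 was lower in oeSTUB1 (log2 fold change -0.45, limma adjusted p = 0.0491). NR1H2 did not pass the test (0.14, limma adjusted p = 0.313). NR1H3 lost its call under several alternatives, with adjusted p up to 0.16. The part of these receptors in the values of ABCA1 and ABCG1 was not tested. ABCG4, at 0.184 and 0.151 FPKM, did not pass the test. Of 10 genes of sterol output, a list that includes ABCA1 and ABCG1, 2 were higher and 0 lower, beside 7.01% and 6.59% of all tested genes, and ABCA1 is already counted among the members. The second was LPCAT3, an enzyme that puts polyunsaturated chains into phospholipids (log2 fold change 0.32, limma adjusted p = 0.0329). LPCAT3 lost its call under several alternatives, each replicate left out except oeSTUB1 replicate 2 among them, with adjusted p up to 0.152. The other 8 of the list, with FASN, SCD and MYLIP among them, did not pass the test, and the median over the list was -0.05.

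None of the 5 tested class A genes other than ABCA1 passed the test. In oeNC the highest was ABCA2, a transporter of late endosomes and lysosomes, at 8.38, 8.55 and 7.33 FPKM in oeNC and 5.92, 4.13 and 6.84 FPKM in oeSTUB1. Its groups did not overlap, and its log2 fold change was -0.54 (SE 0.18, limma adjusted p = 0.0854). Without oeSTUB1 replicate 2 the ABCA2 difference shrank to -0.34 with an adjusted p of 0.0371. The adjusted p was 0.0462 without oeSTUB1 replicate 3, 0.0212 with the correction for gene length, and up to 0.24 with another library left out. ABCA3, the lamellar body phospholipid transporter, was at 7.27 ± 0.215 and 8.17 ± 1.99 FPKM, and oeSTUB1 replicate 2 at 5.89 FPKM was below every other library while replicates 1 and 3 were above every oeNC library. Without replicate 2, its log2 fold change went from 0.14 to 0.35 with an adjusted p of 0.0067. ABCA4, the retinoid transporter of photoreceptors, was below the filter with 6, 13 and 12 fragments in oeNC and 2, 1 and 2 in oeSTUB1, and against a floor of 3 fragments per library it was at least 3.29-fold lower, with an adjusted p of 0.0641 in a fit without the filter. ABCA6, ABCA8, ABCA9, ABCA10 and ABCA13 were also below the filter.

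**Figure D2:**
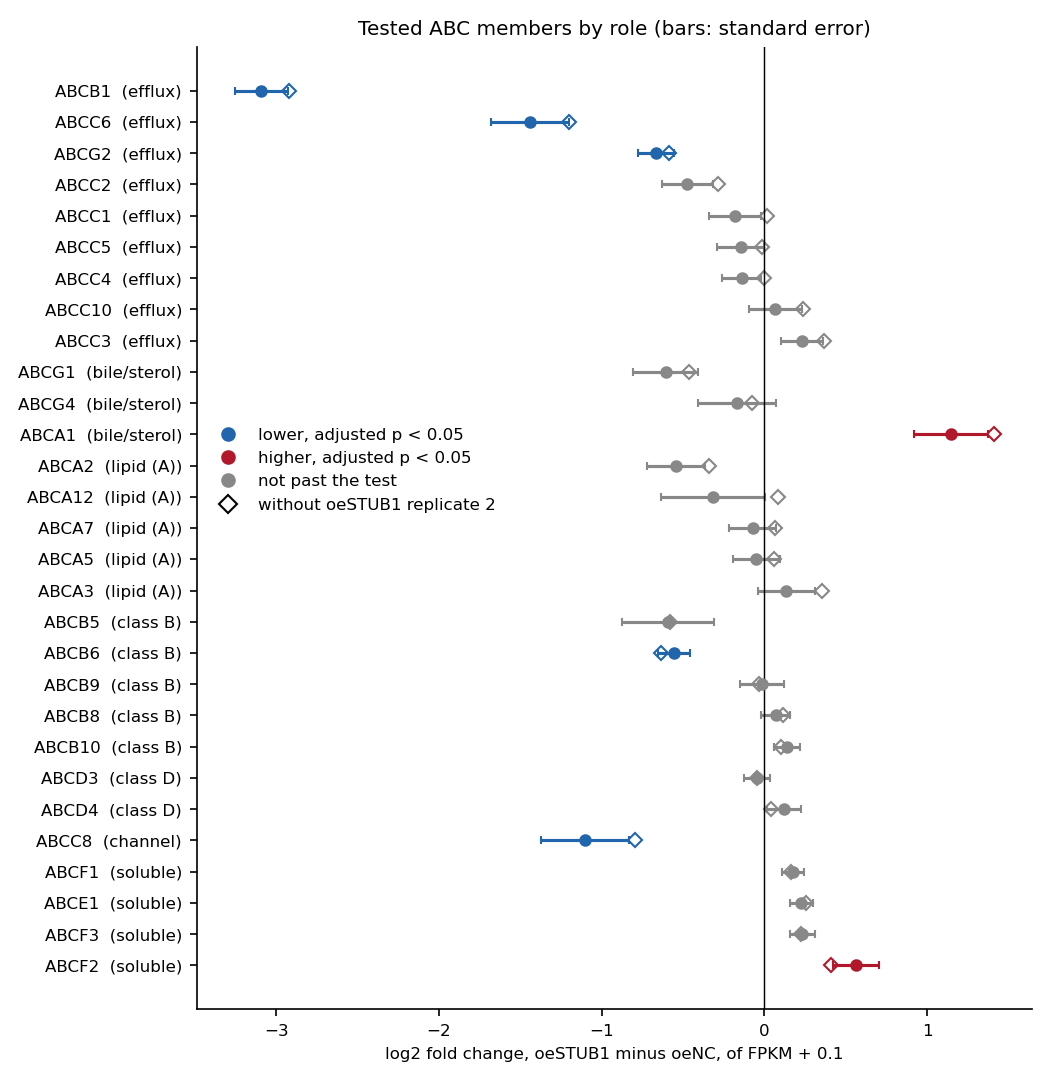
Log2 fold change (oeSTUB1 minus oeNC) of 29 tested ABC genes, grouped by role; circles with bars show the fit on 6 libraries with its standard error, and open diamonds the fit without oeSTUB1 replicate 2. The 5 blue genes are lower and the 2 red genes higher at an adjusted p under 0.05; without replicate 2 the estimates of ABCA1, ABCA3, ABCC1 and ABCC3 lie further to the right.

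Among the class B genes of mitochondria and endolysosomes, ABCB6, which has been tied to porphyrin transport, was lower in oeSTUB1. ABCB6 measured 19.7, 20.3 and 19.2 FPKM in oeNC and 11.8, 15.0 and 13.5 FPKM in oeSTUB1. The groups did not overlap, and the log2 fold change was -0.56 (SE 0.10, limma adjusted p = 0.00997). The call was lost without oeNC replicate 1 (adjusted p = 0.0512) and without oeNC replicate 2 (adjusted p = 0.058). The median log2 fold change of the other tested genes of chromosome 2 was -0.21, and the difference of ABCB6 from it was -0.35. In GENCODE release 29 ABCB6 shares 2864 exon bases on the same strand with AC068946.2, an overlapping protein-coding gene, so its count is uncertain.

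ABCB8, ABCB9 and ABCB10 had log2 fold changes of 0.07, -0.01 and 0.14 and did not pass the test. ABCB5, a plasma membrane protein of melanoma and stem-like cells, had 28 to 54 fragments in oeNC and 10 to 30 in oeSTUB1 and did not pass it either (limma adjusted p = 0.205).

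The class D transporters, which also pair up, bring fatty acids into peroxisomes or, in the case of ABCD4, cobalamin out of lysosomes. ABCD3 was the highest at 26.6 ± 1.79 and 25.7 ± 0.965 FPKM, and the summed level of the class was 35.0 ± 1.64 FPKM in oeNC and 35.1 ± 1.51 in oeSTUB1. Of the 3 tested members 0 passed the test, with log2 fold changes of -0.05 in ABCD3 and 0.12 in ABCD4. ABCC8, the sulfonylurea receptor that forms potassium channels with KCNJ11, was at 1.04, 0.913 and 1.14 FPKM in oeNC and at 0.578, 0.243 and 0.524 FPKM in oeSTUB1. All oeSTUB1 libraries were below all oeNC libraries, with a log2 fold change of -1.10 (SE 0.27, limma adjusted p = 0.0338). The call of ABCC8 was lost without oeNC replicate 1, 2 or 3 (adjusted p = 0.11, 0.0865 and 0.121) and without the filter on low values (adjusted p = 0.0782). ABCC9, the related channel subunit, and ABCD2 were below the filter.

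The soluble members were all at higher mean levels in oeSTUB1. ABCF2, a ribosome-associated ATPase, was at 4.09, 4.06 and 3.87 FPKM in oeNC and at 5.62, 7.38 and 5.11 FPKM in oeSTUB1. The groups did not overlap, and here oeSTUB1 replicate 2 was the highest library. The log2 fold change was 0.56 (SE 0.14, limma adjusted p = 0.0359). The adjusted p was 0.11, 0.118 and 0.123 without oeNC replicate 1, 2 or 3, 0.0687 without oeSTUB1 replicate 1, 0.0661 without the filter and 0.0588 without the intensity trend of limma, and 0.00918 with a log2 fold change of 0.41 without oeSTUB1 replicate 2. ABCF2 shares 1914 exon bases on the same strand with AC021097.2, so its count is uncertain as well.

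ABCE1, which splits ribosomes for recycling, was at 36.8 ± 0.868 FPKM in oeNC and 43.1 ± 2.01 in oeSTUB1. ABCF1 was at 23.4 ± 0.651 and 26.4 ± 0.427 FPKM, and ABCF3 at 10.3 ± 0.444 and 12.2 ± 0.0979 FPKM. For each of the 3 the groups did not overlap, with log2 fold changes of 0.23, 0.17 and 0.23 and limma adjusted p-values of 0.0788, 0.137 and 0.0836. Summed, the 4 soluble members were at 74.6 ± 0.175 FPKM in oeNC and 87.7 ± 1.71 in oeSTUB1.

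The groups did not overlap for 9 members that were lower in oeSTUB1 (29% of those tested, beside 17.3% of all tested genes) and for 6 that were higher (19.4% beside 21.5%). With 3 libraries against 3, an exact permutation test of a single gene cannot go below p = 0.1. Without oeSTUB1 replicate 2, 8 members were called lower (25.8% beside 12% of all genes) and 7 higher (22.6% beside 14.8%). The 7 members called with all libraries were among them, and the others included ABCA2 and ABCC2, which were lower, and ABCA3, ABCC3, ABCE1, ABCF1 and ABCF3, which were higher.

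Gene length moved with these values. The ABC gene models were long: the median length recovered from the FPKM steps was 6417 bases over the tested members and 3694 over all tested genes. oeSTUB1 replicate 2 was the lowest library of its group in 15 of the 25 members with a mean of at least 1 FPKM, and in 14 of the 19 of these that were over 4000 bases, beside 42.5% of the 11375 genes at that level and 70.6% of the 5622 of these over 4000 bases. The share among long members was thus near that among long genes in general. The deviation of replicate 2 from the other oeSTUB1 libraries was -0.79 on the log2 scale in ABCA1, at 10408 bases, and -0.57 in ABCC2, at 7293 bases. It was -0.50 in ABCB1, at 5733 bases, and 0.24 in ABCB6, at 2980 bases. The medians of their length classes were -0.45, -0.26, -0.09 and 0.20, so ABCA1, ABCC2 and ABCB1 were lower than the median gene of their length. ABCF2, at 4527 bases and 0.45, was far above the median of its length class, -0.09. Within oeNC, the median deviation of replicate 2 stayed between -0.02 and 0.01 in every length class.

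**Figure D3:**
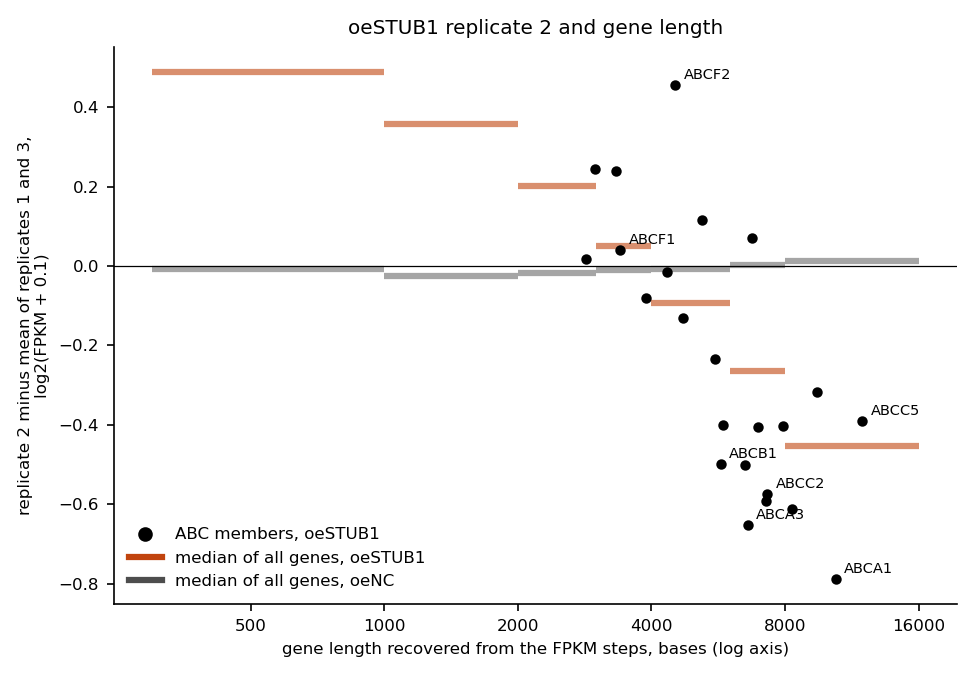
Deviation of replicate 2 from the mean of replicates 1 and 3 in log2(FPKM + 0.1), against gene length on a log axis. Black points are 23 ABC genes in oeSTUB1, and the horizontal bars are medians over all genes of a length class, which run from 0.49 to -0.45 in oeSTUB1 and stay near 0 in oeNC.

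Genes beside ABCB1 on chromosome 7 were looked at after its values had been seen. RUNDC3B lies on the opposite strand, and its gene span from 87627548 to 87832296 covers 85776 bases of that of ABCB1 without shared exon bases. RUNDC3B had 34, 39 and 48 fragments in oeNC and 3, 1 and 4 in oeSTUB1, with all oeSTUB1 libraries far below. Its means were 0.254 and 0.0174 FPKM, and its log2 fold change was -1.59 (limma adjusted p = 0.00437). At these levels the added 0.1 weighs on the size of that change, which ranged from -3.75 to -0.301 over the alternatives. It is therefore not comparable in size with that of ABCB1. ADAM22, 4 genes away on the same side, was at 2.02 ± 0.0523 FPKM in oeNC with a log2 fold change of -0.75 (limma adjusted p = 0.0272). The ADAM22 call was lost without oeNC replicate 1, 2 or 3, without oeSTUB1 replicate 3 and without the filter, with adjusted p from 0.0623 to 0.104. Between them SLC25A40 and DBF4 had log2 fold changes of 0.01 and -0.01, and CROT, TP53TG1, TMEM243 and SRI did not pass the test.

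A list of regulators of ABC genes, mostly transcription factors and cofactors, held 25 tested genes. Of these, 3 were higher and 5 lower in oeSTUB1, beside 7.01% and 6.59% of all tested genes. Their median log2 fold change was -0.17. NR1H4, the bile acid receptor FXR, went from 1.503 ± 0.0267 to 0.464 ± 0.0982 FPKM, a log2 fold change of -1.52 (limma adjusted p = 0.00125). HNF4A, a factor of liver and gut epithelium, went from 10.8 ± 0.658 to 5.20 ± 0.808 FPKM, a log2 fold change of -1.05 (limma adjusted p = 0.00182).

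NFE2L2, the oxidative stress factor NRF2, was lower, with a log2 fold change of -0.48 (limma adjusted p = 0.0219). NR5A2, or LRH-1, a nuclear receptor of bile acid synthesis, was higher, from 3.63 ± 0.166 to 9.92 ± 0.851 FPKM (log2 fold change 1.42, limma adjusted p = 0.000176), as was HIF1A, the hypoxia factor, from 93.1 ± 4.87 to 185.1 ± 30.2 FPKM (log2 fold change 0.98, limma adjusted p = 0.00249). NFE2L2 lost its call without oeNC replicate 1 or 3 or oeSTUB1 replicate 1 or 3, with adjusted p from 0.0548 to 0.0647. NR1H4, HNF4A, NR5A2 and HIF1A kept their call under each alternative that held them. NR1I2, the xenobiotic receptor PXR, stayed below 1 FPKM in every library.

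**Figure D4:**
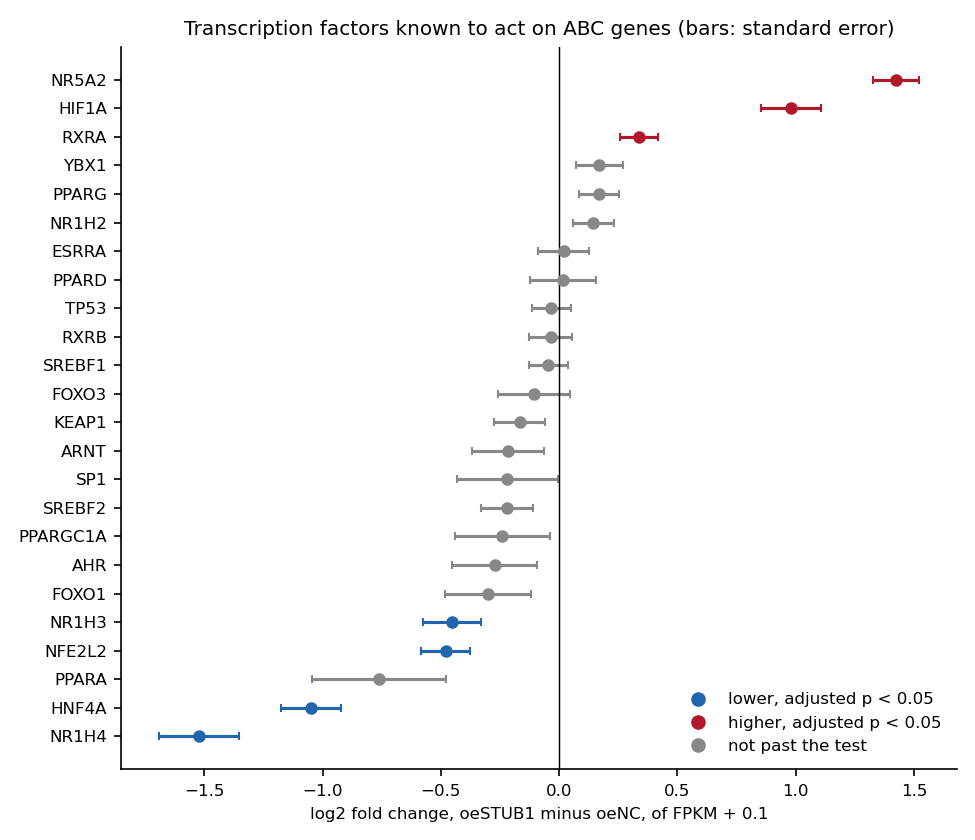
Log2 fold change (oeSTUB1 minus oeNC, with standard error) of 24 tested regulators of ABC genes, mostly transcription factors and cofactors. Genes in blue, NR1H4 and HNF4A among them, were lower and genes in red, NR5A2 and HIF1A among them, higher at an adjusted p under 0.05; the 17 in grey did not pass the test.

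Carriers that work with ABC pumps in bile acid and organic ion transport were called in both directions, 3 higher and 3 lower of 15 tested, beside 7.01% and 6.59% of all tested genes, with a median log2 fold change of 0.00. SLC51B, a subunit of the basolateral bile acid exporter, was lower at 4.48 ± 0.900 and 1.95 ± 0.461 FPKM (log2 fold change -1.17, limma adjusted p = 0.0103). SLCO3A1, an organic anion carrier, was higher at 2.04 ± 0.134 and 5.27 ± 0.411 FPKM (log2 fold change 1.33, limma adjusted p = 0.000354), and SLC22A5, the carnitine carrier, at 7.02 ± 0.385 and 10.5 ± 0.335 FPKM (log2 fold change 0.57, limma adjusted p = 0.00403). These 3 kept their call under each alternative, whereas SLCO1B1 (0.56), SLC22A18 (-0.66) and SLC29A2 (-0.33) each lost it when any oeNC library was left out, among other alternatives. The bile acid uptake carriers SLC10A1 and SLC10A2 stayed below 1 FPKM in every library.

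Of 23 tested genes listed as partners of ABC transporters, 2 were higher and 2 lower, near the 7.01% and 6.59% of all tested genes. The median log2 fold change was -0.01. The list also holds TMEM30A, a subunit of flippases, which are not ABC proteins. PDZK1, a scaffold that binds ABCC2 and other apical transporters, was at 3.98 ± 0.562 FPKM in oeNC and 0.496 ± 0.236 in oeSTUB1, a log2 fold change of -2.84 (SE 0.27, limma adjusted p = 0.000642), and it kept its call under each alternative. TMEM30A (0.29) and TAPBP (0.29), chaperone subunits of flippases and of the peptide transporter TAP, were higher, each losing its call when any oeNC library was left out. TAP1 and TAP2, the peptide transporter itself, had log2 fold changes of 0.17 and 0.26 and did not pass the test (limma adjusted p = 0.23 and 0.0964), and CFTR was below the filter.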

How the data were processed

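The 6 TFK1 libraries, 3 oeNC and 3 oeSTUB1, were grouped by their labels. The authors deposited FPKM values per gene symbol. The submitters' processing notes name fastp 0.20.1, HISAT2 2.1.0, HTSeq 0.11.2, R 3.2.0, DESeq2 1.22.2 and the build GRCh38.p13. The annotation and the use of strand are not given in the sources used here. Value columns of no mapped sample numbered 0.

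From the deposited FPKM values, library totals, whole fragments and gene lengths were recovered from the step between values. All 23569 genes (100.0%) came out whole, with recomputed FPKM within 4.9e-06 of the deposited value, and 99.7% of each library total lay on listed genes. A gene's fragments can be low by a common divisor. Totals of 33106564 to 36744521 set the precision, and a gene with at most 3 fragments in each library of a group was at the floor, which covers counting error only.

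The groups were compared by a two-sided limma fit (version 3.58.1, R 4.3.3) with eBayes and its intensity trend. Values entered as log2(FPKM + 0.1), a mean below 0.1 FPKM kept a gene out, and Benjamini-Hochberg adjustment covered all 15353 genes left. The paper's text names no test for the RNA-seq. Fits were also run on simulated data, which held no outlying library and no effect of gene length. That run therefore does not bear on how the fit handles oeSTUB1 replicate 2. The ABC rule, the lists, roles and tests were chosen with earlier results of these data known. The genes named were all called members, the drug and bile transporters ABCB1, ABCB4, ABCC1 to ABCC6 and ABCG2, ABCA1 and ABCG1, the highest member of each role, and up to 6 called genes of each list by size of change, while the plots label further genes. Members seen only in counts or below the filter were named beside them. NR1H3 and NR1H2 were added as the LXR genes. Alternatives were pseudocounts of 1 and 0.01, no filter and a filter at 1 FPKM, median-ratio and quantile scaling, no trend, the replicate number as a block, limma-voom on recovered fragments, a lowess correction for gene length, a comparison with the chromosome median and leaving out each library. Coordinates are those of GENCODE release 29 on GRCh38, and promoters are from RefSeq on GRCh38.p14. A few genes of the lists are not reported here.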

Additional observations from a re-analysis of the deposited data

How the results depend on the processing

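STUB1 and the 7 called members kept their direction in all fits, and ABCB1, ABCC6 and ABCG2 also kept their call in all fits that held them. Of 24 members not called, 15 were called in no fit and 8 were called without oeSTUB1 replicate 2. The 2 members called higher became 1 without the filter, 1 without the trend, 0 at an adjusted p under 0.01, 5 at an unadjusted p under 0.05, and 0 to 7 when 1 library was left out (7 without oeSTUB1 replicate 2, 0 without any oeNC library or oeSTUB1 replicate 1). The 5 called lower became 3 with a filter at 1 FPKM, since ABCC6 and ABCC8 were then not tested, 8 at an unadjusted p under 0.05, and 3 to 8 with 1 library left out (3 without oeNC replicate 1 or 2, 8 without oeSTUB1 replicate 2). With a log2 fold change over 1, the 1 higher member became 0 at a pseudocount of 1 and 0 to 1 with 1 library left out, and the 3 lower members became 1 at a pseudocount of 1, 1 with the filter at 1 FPKM and 2 to 3 with 1 library left out. Over all genes, 2088 were called, 3402 with the length correction and 933 to 4112 with 1 library left out, the highest count without oeSTUB1 replicate 2. The cause of these shifts was not tested.

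Members that were not called changed sign as follows. With the length correction ABCA5 was at 0.0318 and ABCB9 at 0.0127, and with quantile scaling ABCB9 was at 0.0572. With 1 library left out, ABCA12 ranged from -0.553 to 0.0818, ABCA5 from -0.123 to 0.0576, ABCA7 from -0.202 to 0.0636, ABCC1 from -0.313 to 0.0163 and ABCC10 from -0.0373 to 0.235, in each case highest without oeSTUB1 replicate 2, and ABCB9 from -0.0723 to 0.0439.

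Libraries with the same replicate number did not deviate together, with correlations of -0.15, -0.08 and 0.15 for numbers 1, 2 and 3, so the numbers were not taken as a pairing. With the replicate number as a block, 2 members were higher and 5 lower, with 1 and 3 of them past a log2 fold change of 1, STUB1 was at 1.03, and 1488 genes were called instead of 2088. The block changed no call of a member. For members at a few fragments per library, such as ABCB4 and ABCB11, depth limited the comparison, and without the filter their adjusted p was 0.196 and 0.402.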
